A study of Mus musculus with 14 samples.

Results

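The classical glucocorticoid-induced genes are 10 genes that the glucocorticoid receptor (GR) is known to switch on in many cell types: Tsc22d3, Fkbp5, Sgk1, Per1, Klf9, Zbtb16, Cebpd, Dusp1, Errfi1 and Pdk4. They were chosen by name, and a probe was counted for a gene when its RefSeq accession mapped to that gene. In this way 13 of the 41174 probes on the array were found, for 9 of the 10 genes and out of 19096 genes with a probe. Zbtb16, a zinc finger repressor, had no matching probe and was not analysed here. All 13 probes were well above background on all 14 arrays.

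Total RNA was measured from the colon of female C57BL/6 mice aged 4 to 6 months, on chow diet, with 1-colour Agilent whole mouse genome arrays. Flox mice carry loxP-flanked alleles of Nr3c1, the gene that encodes GR, and GR iKO mice carry in addition Villin-cre, which removes these alleles in the intestinal epithelium from development on. The other cells of a GR iKO colon keep the receptor. The labels name no adrenalectomy or steroid treatment of these mice, and their hormone levels were not used here. Mice of both genotypes drank either regular water (4 Flox and 4 GR iKO) or water with 2.5% dextran sulfate sodium (DSS) for 7 days (3 Flox and 3 GR iKO). DSS damages the colonic lining and causes colitis. Levels are given as log2 signal relative to each array's 75th percentile, so that a level can be compared between arrays for 1 probe but not between probes. In whole colon, fewer cells of a type and less RNA per cell cannot be told apart.

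Glucocorticoids are steroid hormones of the adrenal cortex that bind GR in the cytoplasm. The receptor then leaves its chaperones, enters the nucleus and binds a short palindromic sequence, the glucocorticoid response element, near the genes it induces. Several of these genes feed back on the response itself. Fkbp5 encodes a chaperone that lowers the receptor's affinity for hormone, Tsc22d3 encodes GILZ, an inhibitor of NF-kB and AP-1, and Dusp1 encodes a phosphatase that turns off p38 and JNK. In the colon, glucocorticoids also induce Sgk1, a kinase that promotes sodium uptake through the epithelial sodium channel.

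The promoters of 8 members were read from RefSeq, assembly GRCm38.p6, as the 250 bases before each of 17 annotated starts. No promoter was held for Cebpd or Zbtb16. The full glucocorticoid response element, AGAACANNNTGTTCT, was found before 3 of 32851 starts of all genes (0.00913%), and 1 of these was a start of Sgk1. Its first base lies 189 bases before that start and 965 bases before the next annotated Sgk1 start. A relaxed form, GNACANNNTGTNC, was found before 0.387% of all starts, and among members only at the same place in Sgk1. A single arm of the palindrome, AGAACA, was found on either strand before 16.1% of all starts, and before 4 member starts, those of Sgk1 and Tsc22d3. Both arms of the full element count among these. The cAMP response element TGACGTCA was found before 1.55% of all starts, and among members before Dusp1 and Errfi1. The E-box CACGTG, which clock proteins bind, was found before 6.02% of all starts, and among members before Dusp1, Fkbp5, Per1 and Sgk1. The AP-1 site TGANTCA (6.75% of all starts) was found before Klf9 only, and the D-box TTATGTAA (0.819%) before no member. Both strands were searched. A match only says that these letters are in the window.

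These stretches of 80 bases show some of the matches named above, in capitals. They are the glucocorticoid element or a single arm of it (Sgk1, Tsc22d3), the cAMP response element (Dusp1, Errfi1) and the E-box (Dusp1, Per1, Fkbp5). The stretches are written 5′ to 3′ on the strand of the gene. They lie at chr10:21993671-21993750 (plus strand), chrX:140600658-140600737 (minus), chr17:26508566-26508645 (minus), chr4:150854989-150855068 (plus), chr11:69098753-69098832 (plus) and chr17:28486269-28486348 (minus), in the order given.
Sgk1: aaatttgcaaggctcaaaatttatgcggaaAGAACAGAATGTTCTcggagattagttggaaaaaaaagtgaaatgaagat
Tsc22d3: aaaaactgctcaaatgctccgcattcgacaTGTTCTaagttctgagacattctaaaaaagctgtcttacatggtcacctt
Dusp1: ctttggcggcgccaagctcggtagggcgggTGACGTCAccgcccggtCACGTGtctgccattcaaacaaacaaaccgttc
Errfi1: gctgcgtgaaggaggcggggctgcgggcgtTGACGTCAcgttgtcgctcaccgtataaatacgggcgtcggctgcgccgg
Per1: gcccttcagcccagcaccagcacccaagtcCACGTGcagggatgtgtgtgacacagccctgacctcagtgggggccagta
Fkbp5: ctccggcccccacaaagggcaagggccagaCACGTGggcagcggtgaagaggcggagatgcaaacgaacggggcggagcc

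Array 75th percentiles ranged from 262 to 1003 intensity units, and 62.6 to 71.3% of probes were well above background. Replicates varied more on DSS, with a median SD per probe of 0.26 in Flox and 0.34 in GR iKO against 0.18 and 0.17 on water. Each group sat at its own position on the slides, so array position and group cannot be told apart. Epithelial, smooth muscle, fibroblast, macrophage and endothelial markers (8, 6, 6, 6 and 5 genes) were well above background on every array, as the label colon requires.

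The targeted gene, Nr3c1, was examined first. On water, its level (probe A_52_P138090) was 1.05, 1.17, 1.18 and 1.38 in Flox colons and 0.36, 0.57, 0.44 and 0.19 in GR iKO colons. On DSS it was 1.27, 1.46 and 1.07 in Flox colons and 0.48, 0.45 and 0.37 in GR iKO colons. GR iKO arrays thus lay below all Flox arrays with either drink, at 57.3% of the Flox signal on water (exact permutation test, two-sided, p = 0.0286) and 56.1% on DSS (exact permutation test, p = 0.1). These are the smallest p values that 4 against 4 and 3 against 3 arrays allow. Under scaling to spike-in transcripts, which moved the median of all probes on DSS from 0.03 to 1.24, the DSS difference turned from −0.83 to 0.38. Of the other 3 Nr3c1 probes, A_51_P355693 and A_52_P63106 did not overlap between genotypes on water, and A_52_P254174 and A_52_P63106 did not on DSS. Only A_52_P63106 was called, on water (adjusted p = 0.0364 by limma). A_52_P138090, which stands for the gene, was not called on water (adjusted p = 0.293 by limma) or on DSS (0.226). Where the probes lie relative to the deleted exons was not determined here.

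To determine whether epithelial GR loss lowers its target genes without injury, GR iKO and Flox colons on water were compared. None of the 9 genes was called lower or higher (limma, adjusted p under 0.05), and 1 of 9 had an unadjusted p under 0.05, against 3.04% of all probes. Over all probes tested, 0.0102% were called (3 of 29523). By the same test the probe that stands for Nr3c1, at 57.3% of the Flox signal, was not called either. A missing call is thus not evidence of no difference. Differences ran from −0.29 (Pdk4) to 0.04 (Errfi1) on the log2 scale, with a median of −0.12 against −0.01 over all probes, and 8 of 9 were negative against 51.8% of all probes. Scaled to spike-in transcripts, all 9 were negative, with the median of all probes at −0.18. The 95% confidence intervals reached down at most to 63.2% of the Flox signal (Cebpd).

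**Figure D1:**
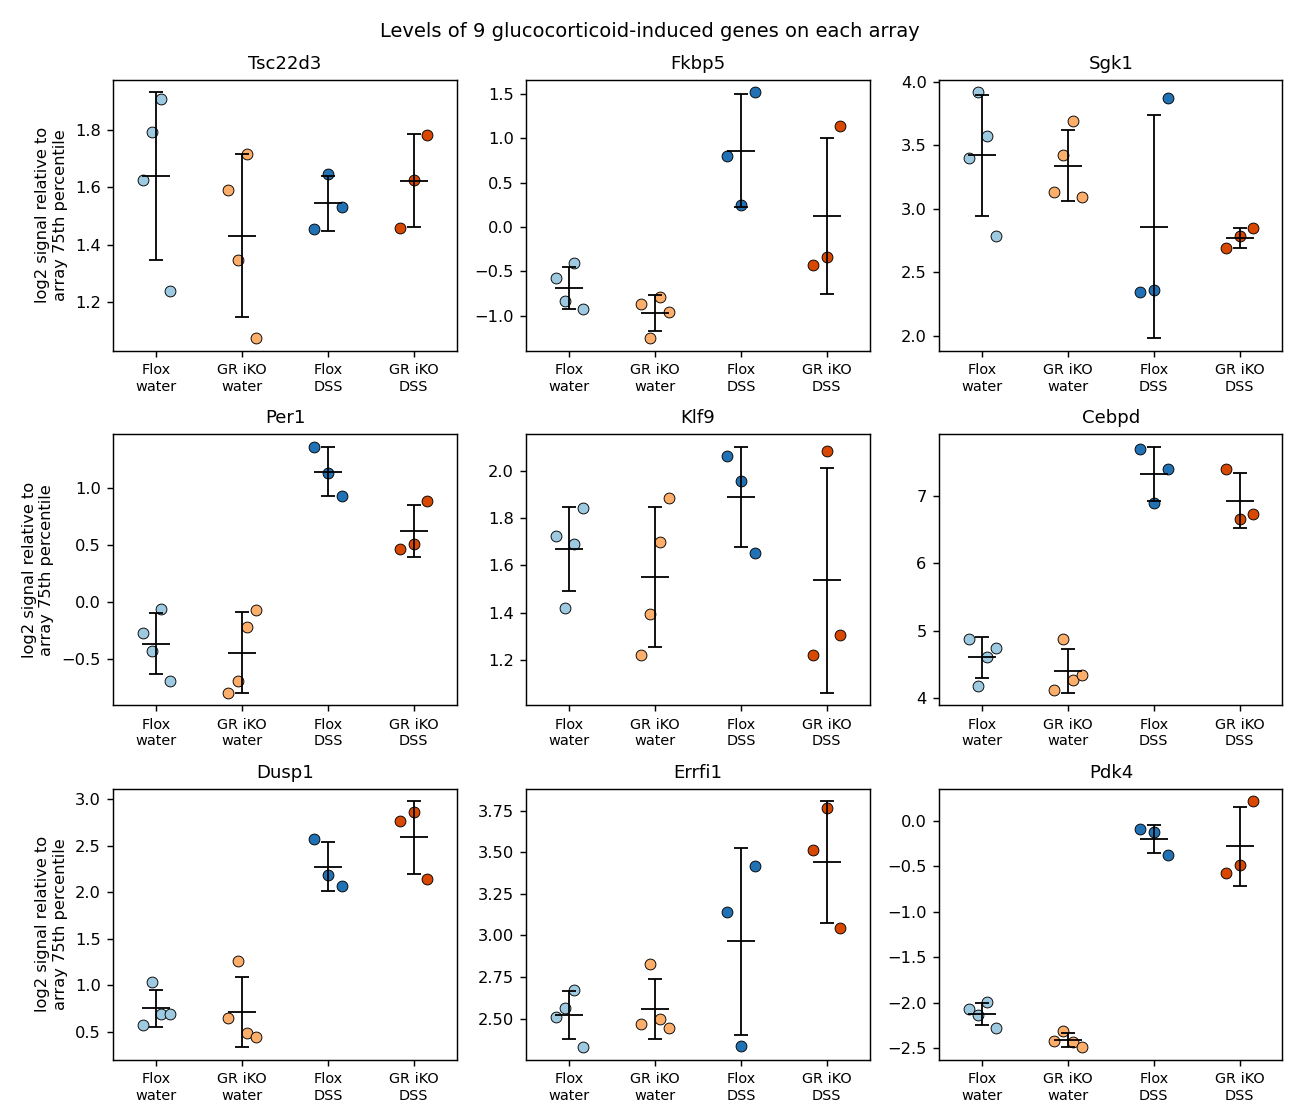
Level of each of the 9 genes (vertical axes, log2 signal relative to the array's 75th percentile, with a scale of its own in each panel) in the 4 groups. Points are arrays, bars are mean ± SD, n = 4 on water and n = 3 on DSS. Cebpd, Dusp1, Per1 and Pdk4 on DSS lie above all water arrays in both genotypes, whereas Tsc22d3 and Klf9 overlap throughout. Under spike-in scaling rises of less than 2.32 in Flox and 0.93 in GR iKO change sign.

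Genes that restrain the receptor, inflammation or growth signals were not called between genotypes on water. Tsc22d3 levels were 1.62, 1.79, 1.91 and 1.24 in Flox and 1.59, 1.35, 1.72 and 1.07 in GR iKO colons. Fkbp5 levels (A_52_P481493) were −0.58, −0.83, −0.40 and −0.92 in Flox and −0.87, −1.26, −0.79 and −0.96 in GR iKO colons. Both genes overlapped between genotypes, with a difference of −0.21 (95% confidence interval −0.64 to 0.22) for Tsc22d3 and −0.28 (−0.62 to 0.05) for Fkbp5. With A_52_P481493, Fkbp5 was lower in GR iKO within all 4 slides. Its other probes, A_51_P383689 (−0.05) and A_52_P337899 (−0.10), were each lower within 2 of 4 slides. Dusp1 levels were 0.57, 1.03, 0.69 and 0.69 in Flox and 0.64, 1.26, 0.49 and 0.44 in GR iKO colons, a difference of −0.04 (−0.48 to 0.40). Errfi1, a feedback inhibitor of the EGF receptor, had levels of 2.51, 2.57, 2.67 and 2.33 against 2.47, 2.83, 2.50 and 2.45, with a difference of 0.04 (−0.23 to 0.31).

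Sgk1 levels were 3.40, 3.92, 3.57 and 2.78 in Flox and 3.13, 3.42, 3.69 and 3.10 in GR iKO colons on water. The groups overlapped and differed by −0.08 (95% confidence interval −0.65 to 0.48), and Sgk1 was not called. Among the transcription factors, Per1, a clock repressor, had levels of −0.27, −0.43, −0.06 and −0.69 in Flox and −0.79, −0.69, −0.22 and −0.07 in GR iKO colons. Klf9, a zinc finger repressor (A_52_P675996), had levels of 1.72, 1.42, 1.69 and 1.84 against 1.22, 1.40, 1.70 and 1.88. Cebpd, a transcription factor of acute inflammation, had levels of 4.87, 4.18, 4.62 and 4.75 against 4.12, 4.87, 4.27 and 4.34. All 3 overlapped, with differences of −0.08 for Per1, −0.12 for Klf9 and −0.20 for Cebpd, each with an interval that includes 0.

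Pdk4, which encodes a kinase that shuts off pyruvate oxidation, was the one member whose groups did not overlap on water. Its levels were −2.07, −2.14, −2.00 and −2.28 in Flox and −2.42, −2.31, −2.43 and −2.49 in GR iKO colons. The GR iKO mean was 81.7% of the Flox mean (log2 difference −0.29, 95% confidence interval −0.49 to −0.10), with an unadjusted p of 0.00903 and a limma adjusted p of 1.0. It was lower within all 4 slides. Every GR iKO array lay below every Flox array for 0.989% of all probes, and above for 1.27%, so that 1 of 9 members below and 0 above is read against these shares. Over 20 alternative settings the adjusted p of Pdk4 ran from 0.56 to 1.0. Its difference ran from −0.47 to −0.14, the latter with normexp background correction. Smooth muscle markers (6 of 6 well above background on all arrays) ranged from −0.35 to 0.42 in Flox and −0.40 to 0.41 in GR iKO colons on water as a list mean relative to all water arrays, and adipocyte markers (4 genes) from −0.85 to 0.64 and −0.41 to 0.69. Their part in the Pdk4 difference was not tested.

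The genotypes were next compared on DSS. Again none of the 9 genes was called, while 0% of all probes were called in either direction and 4794 of 29523 had an unadjusted p under 0.05. With 1 spread shared by all 14 arrays, 13.2% of probes were called, and still none of the members. Differences ran from −0.73 (Fkbp5) to 0.48 (Errfi1), and 6 of 9 were negative, against 47.6% of all probes. Scaled to spike-in transcripts, all 9 were positive, and none was called. The intervals were wide. They reached down to 25.4% of the Flox signal for Fkbp5, 45.5% for Cebpd and 45.9% for Sgk1, and to 78.2% for Tsc22d3.

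**Figure D2:**
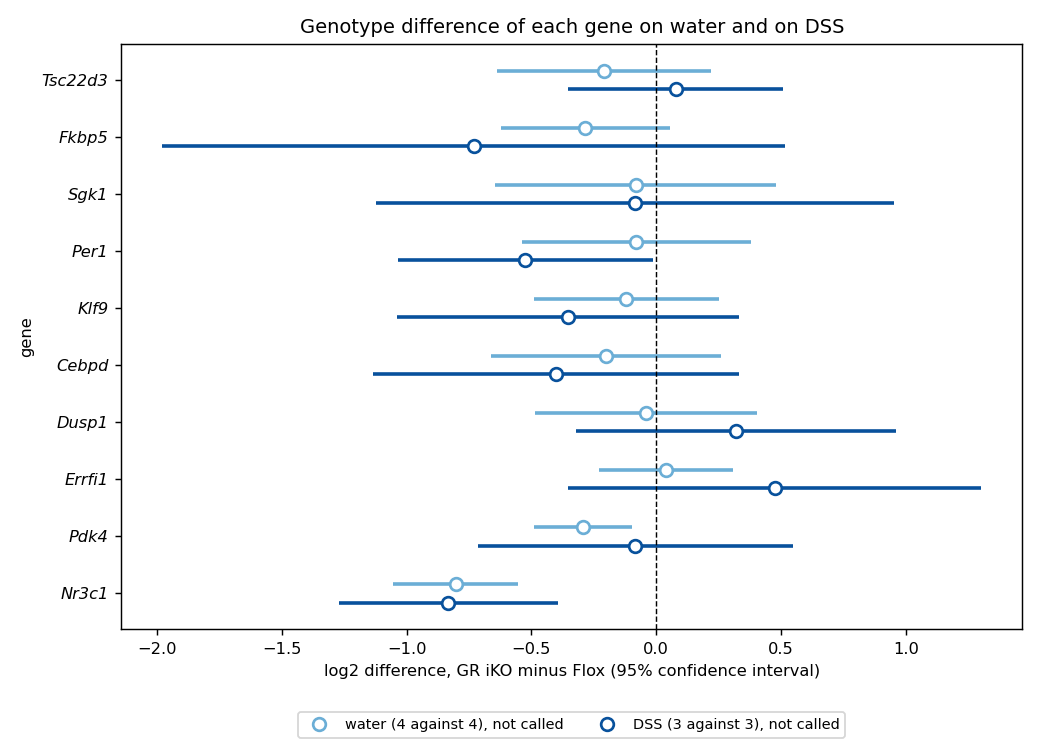
Log2 difference between GR iKO and Flox (horizontal axis) for the 9 genes and for Nr3c1, on water (light, 4 against 4 arrays) and on DSS (dark, 3 against 3). Points are differences, lines 95% confidence intervals and open points were not called. The Nr3c1 intervals lie below 0 with both drinks, whereas for the 9 genes only Pdk4 on water and Per1 on DSS have an interval that leaves out 0. Scaled to spike-in transcripts, every difference on DSS is positive.

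By the probe that stands for each gene, Per1 was the one member whose groups did not overlap on DSS. Its levels were 1.37, 1.14 and 0.94 in Flox and 0.47, 0.52 and 0.89 in GR iKO colons. The GR iKO mean was 69.6% of the Flox mean (log2 difference −0.52, 95% confidence interval −1.04 to −0.01), with an unadjusted p of 0.0462 and a limma adjusted p of 0.299. It was lower within both of the 2 slides that held DSS arrays of both genotypes. Over 18 alternative settings its adjusted p ran from 0.138 to 0.789. Every GR iKO array lay below every Flox array for 11.6% of all probes and above for 11.2%, against 1 and 0 of 9 members. The 1 of 9 below is close to the share of all probes. In the same arrays the list mean of 6 smooth muscle markers was 0.93 to 1.73 in Flox and −0.73 to 0.53 in GR iKO colons, that of 5 enteric nerve and glia markers 2.57 to 3.14 and 1.74 to 2.12, that of 4 adipocyte markers 0.11 to 2.01 and −2.72 to 0.90, and that of 16 other clock genes 0.09 to 0.54 and −0.47 to 0.63. Other lists stood higher in GR iKO on DSS. Epithelial markers stood at −0.63 to −0.07 in Flox and 0.01 to 0.39 in GR iKO colons. Neutrophil markers stood at 5.11 to 6.22 and 6.70 to 8.69, and T cell markers at −0.79 to −0.11 and −0.005 to 0.59. The part of all these cells and genes in the Per1 difference was not tested.

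Fkbp5 had the most negative difference on DSS, and the widest interval. Its levels on DSS were 0.80, 0.25 and 1.52 in Flox and −0.42, −0.33 and 1.14 in GR iKO colons. Replicate 4 of GR iKO stood among the Flox arrays, and the difference of −0.73 had an interval of −1.98 to 0.52. Without that array it was −1.24 (−2.26 to −0.22, adjusted p = 0.341 by limma), again not called. Its other probes differed by 0.34 (A_51_P383689) and 0.25 (A_52_P337899) in the opposite direction. Tsc22d3 differed by 0.08 on DSS. Its other probe, A_52_P600518, was higher in all 3 GR iKO arrays than in all Flox arrays (0.31, adjusted p = 0.435 by limma). Sgk1 differed by −0.08, Klf9 by −0.35, Cebpd by −0.40 and Pdk4 by −0.08, while Dusp1 differed by 0.32 and Errfi1 by 0.48, all with overlapping groups.

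To see whether colitis itself moves these genes and whether that needs the epithelial receptor, DSS was compared with water within each genotype. In Flox colons, 5 of 9 genes rose, Cebpd, Dusp1, Fkbp5, Pdk4 and Per1, and 0 fell, where 24.5% of all probes were called higher and 29% lower. The Fkbp5 probe was chosen partly by its DSS levels, and with the probes of a gene averaged 4 members rose in Flox. In GR iKO colons, 5 of 9 rose, Cebpd, Dusp1, Errfi1, Pdk4 and Per1, and 1, Sgk1, fell, where 19.6% of all probes were called higher and 18.1% lower. The median change of the members was 1.51 in Flox and 1.06 in GR iKO, against −0.09 and −0.02 over all probes. These directions hold relative to the rest of the array. Scaled to 7 spike-in probes, the median of all probes on DSS fell by 2.41 in Flox and 0.95 in GR iKO, and any rise smaller than 2.32 in Flox or 0.93 in GR iKO changed sign. Cebpd was then the only member above its water level in Flox (0.41, adjusted p = 0.325 by limma). Cebpd (1.61) and Pdk4 (1.21) remained called higher in GR iKO. Both comparisons use their own water arrays, and normexp background correction moved the median of all probes to 0.22 in Flox and 0.13 in GR iKO with the same 7 of 9 members positive.

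Cebpd showed the largest rise among the members. On DSS its levels were 7.70, 6.90 and 7.41 in Flox and 7.40, 6.66 and 6.74 in GR iKO colons, all above the 8 water arrays. The change was 6.65-fold in Flox (log2 2.73, SE 0.24, adjusted p = 0.000248) and 5.79-fold in GR iKO (2.53, SE 0.25, adjusted p = 0.000554 by limma). Pdk4 followed. Its DSS levels were −0.09, −0.13 and −0.37 in Flox and −0.58, −0.48 and 0.22 in GR iKO colons, a rise of 3.80-fold (1.92, SE 0.12, adjusted p = 0.000119) and 4.39-fold (2.13, SE 0.21, adjusted p = 0.000517). On DSS its genotypes overlapped.

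Dusp1 also rose in both genotypes. Its DSS levels were 2.57, 2.18 and 2.06 in Flox and 2.77, 2.86 and 2.14 in GR iKO colons. This was 2.87-fold in Flox (adjusted p = 0.00055) and 3.69-fold in GR iKO (adjusted p = 0.0019, limma). Per1 rose 2.85-fold in Flox (adjusted p = 0.000715) and 2.09-fold in GR iKO (adjusted p = 0.00908). For both genes every DSS array lay above every water array of the same genotype. Errfi1 levels on DSS were 3.14, 2.34 and 3.42 in Flox and 3.51, 3.77 and 3.04 in GR iKO colons. It was called in GR iKO (1.84-fold, adjusted p = 0.0128 by limma) and not in Flox (1.36-fold, adjusted p = 0.18), where replicate 2 stayed among the water arrays. Without that replicate Errfi1 was called in Flox too (0.76), and with array quality weights it was not called in GR iKO.

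**Figure D3:**
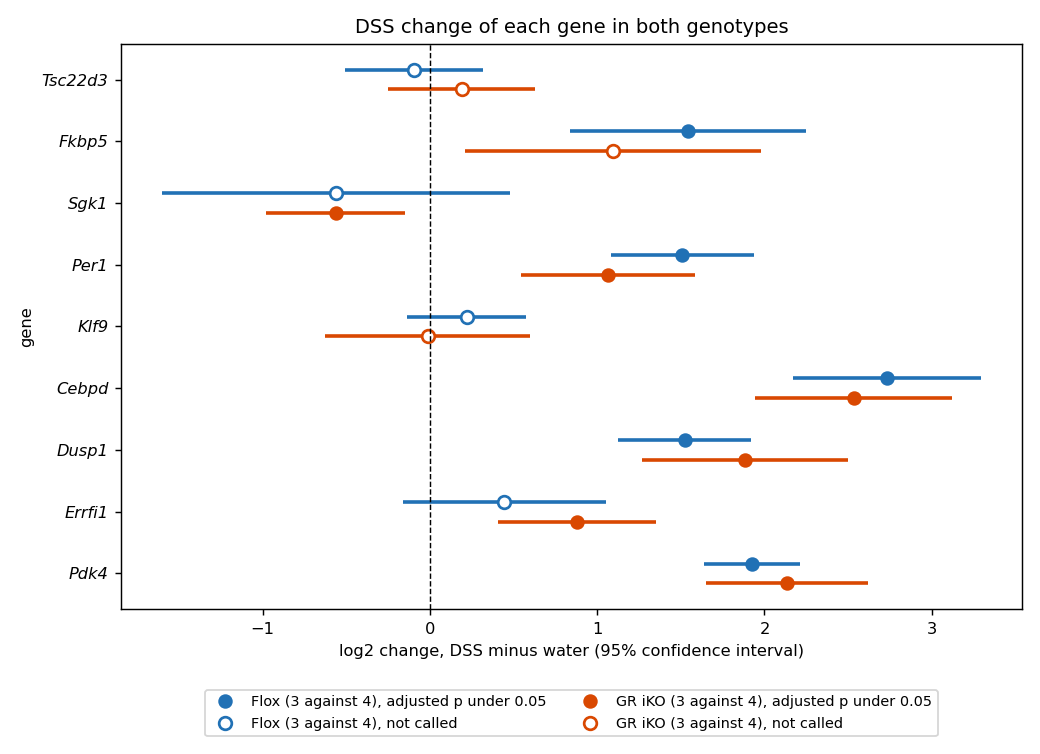
Log2 change between DSS and water (horizontal axis) for the 9 genes in Flox (blue) and GR iKO (orange), 3 against 4 arrays each. Points are changes, lines 95% confidence intervals, and filled points were called. The intervals of the genotypes overlap for every gene. Scaled to spike-in transcripts, all Flox points move down by 2.32 and all GR iKO points by 0.93.

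The call for Fkbp5 rested on 1 of its 3 probes. A_52_P481493 rose 2.91-fold on DSS in Flox (log2 1.54, SE 0.30, adjusted p = 0.00475 by limma) and 2.14-fold in GR iKO (1.10, SE 0.38, adjusted p = 0.0556, not called). With A_51_P383689 the changes were −0.45 and −0.06, and with A_52_P337899 they were 0.01 and 0.36, none of them called. The mean over the 3 probes was not called in Flox (0.37). In GR iKO, replicate 4 was far above the other DSS arrays of that genotype, and Fkbp5 was called there in 8 of 19 alternative settings. Which probe measures which transcript of Fkbp5 was not determined here.

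**Figure D4:**
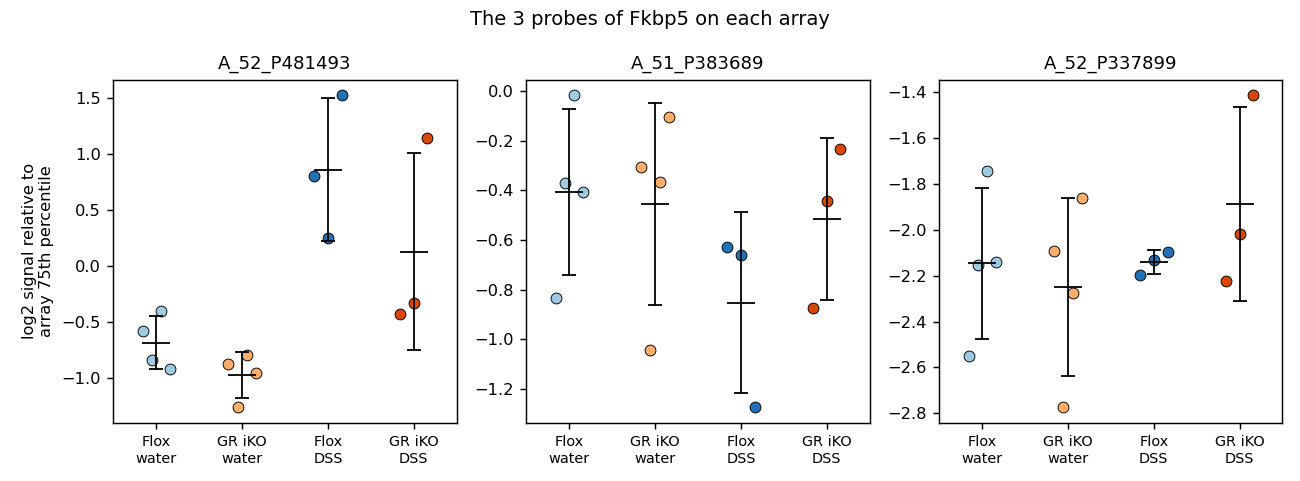
Level of the 3 Fkbp5 probes (vertical axes, log2 signal relative to the array's 75th percentile) on each array of the 4 groups, with mean ± SD, n = 4 on water and n = 3 on DSS. Only A_52_P481493, on the left, lies higher on DSS than on water in both genotypes without overlap, a rise that turns to −0.78 in Flox under spike-in scaling.

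Sgk1 was the one member called lower on DSS. Its levels on DSS were 2.34, 2.36 and 3.87 in Flox and 2.69, 2.79 and 2.85 in GR iKO colons. All GR iKO arrays on DSS lay below all GR iKO arrays on water, at 67.7% of the water signal (log2 change −0.56, SE 0.18, adjusted p = 0.0406 by limma). The Flox mean changed by the same −0.56, but replicate 4 stood at the level of water arrays and the gene was not called (SE 0.44, adjusted p = 0.315). Without that replicate it was called lower in Flox (−1.07). The GR iKO call was lost in 12 of 19 alternative settings, among them the loss of any of the 3 DSS arrays.

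Tsc22d3 and Klf9 were not called on DSS in either genotype. Tsc22d3 levels on DSS were 1.46, 1.65 and 1.53 in Flox and 1.46, 1.63 and 1.78 in GR iKO colons, changes of −0.10 (95% confidence interval −0.51 to 0.32) and 0.19 (−0.25 to 0.63). Klf9 levels were 2.06, 1.96 and 1.65 in Flox and 1.22, 2.08 and 1.31 in GR iKO colons, changes of 0.22 (−0.14 to 0.58) and −0.01 (−0.62 to 0.60). The second probe of each gene was not called either.

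The difference between the genotypes in DSS response was tested directly. None of the 9 members was called for the interaction, where 0.112% of all probes were called, and none had an unadjusted p under 0.05, against 19.2% of all probes. With separate variances for water and DSS arrays, 0 of 29523 probes were called. The GR iKO response minus the Flox response ran from −0.45 for Fkbp5 (95% confidence interval −1.56 to 0.67) to 0.44 for Errfi1 (−0.29 to 1.17). That of Per1 was −0.44 (−1.08 to 0.20), of Dusp1 0.36 (−0.35 to 1.07) and of Cebpd −0.20 (−0.99 to 0.58). Scaled to spike-in transcripts, where the median of all probes moved to 1.42, all 9 were positive and 5 were called (Dusp1, Errfi1, Pdk4, Sgk1 and Tsc22d3).

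Further genes of the pathway were taken from lists. Their counts on DSS are read against the shares of all probes given above, 24.5% higher and 29% lower in Flox and 19.6% higher and 18.1% lower in GR iKO. Of 28 other glucocorticoid-induced genes, 26 were tested. On water 1 was called, Mt1, a metallothionein, which was higher in GR iKO (6.03 against 3.15, log2 difference 2.89, adjusted p = 0.00693 by limma), whereas its neighbour Mt2 differed by 0.35. The Mt1 difference was not called with slide as a block (adjusted p = 0.113 by limma), with the replicate block (0.062), or without GR iKO replicate 2 (0.0523) or 3 (0.0654) on water. None was called between genotypes on DSS. On DSS 13 of 26 rose and 4 fell in Flox, and 15 rose and 4 fell in GR iKO, with median changes of 0.49 and 0.66. In both genotypes Mt2 (4.78 and 4.32), Angptl4, an inhibitor of lipoprotein lipase (4.24 and 4.90), and Il1r2, the decoy receptor of interleukin-1 (2.90 and 4.90), were among the largest rises. Fam107a (2.75 and 1.88) and Tat, the tyrosine aminotransferase long used as a measure of glucocorticoid action in liver (1.28 and 2.33), also rose in both. Apart from that of Tat in Flox, these rises exceed the spike-in shift of their genotype.

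Receptor, chaperone, cofactor and steroid enzyme genes followed. Of 17 tested, 2 rose and 5 fell in Flox, and 1 rose and 4 fell in GR iKO. Hsd11b1, which regenerates active glucocorticoid from its inert form, rose by 2.10 in Flox (limma adjusted p = 0.000139), less than the spike-in shift there, and by 1.45 in GR iKO (adjusted p = 0.00518). Hsd11b2, which inactivates glucocorticoid, fell by 2.22 in Flox (limma adjusted p = 0.00178) and by 1.79 in GR iKO (adjusted p = 0.024). Abcb1a, an efflux pump that exports steroids, fell by 2.00 and 2.20. The corepressor gene Nrip1 fell by 1.12 in Flox and 0.95 in GR iKO, and the chaperone gene Fkbp4 by 1.07 and 1.24. None of the 17 was called between genotypes with either drink by the probe that stands for the gene.

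The closest relatives of the members were examined on DSS in the same way. Of 19 closest family members tested, 10 rose and 2 fell in Flox, and 8 rose and 1 fell in GR iKO. Cebpb, the partner of Cebpd in acute inflammation, rose by 3.18 and 3.29. Sgk2 rose by 1.99 and 2.30 where Sgk1 did not rise, and Tsc22d1 rose by 1.78 and 1.15 where Tsc22d3 was not called. The phosphatase genes Dusp10 (1.51 and 1.53) and Dusp2 (1.22 and 3.28) rose beside Dusp1. In Flox the rises of Sgk2, Tsc22d1, Dusp10 and Dusp2 are under the spike-in shift.

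Since Dusp1, Cebpd and Errfi1 also respond to growth factors and cytokines, and Per1 to the clock, lists of immediate-early and clock genes were set beside them. Of 20 immediate-early genes, 10 rose in Flox and 12 in GR iKO, and 0 fell, with median changes of 0.54 and 0.74. They included Ier3 (2.71 and 3.38), Egr1 (1.55 and 1.83), Nr4a1 (1.63 and 1.26), Junb (1.39 and 1.60) and Egr2 (1.34 and 2.10) in both genotypes. Fosl1 rose by 2.71 in GR iKO and was not called in Flox (0.52). In Flox only the rise of Ier3 among these exceeds the spike-in shift. Of 16 clock genes, 4 rose and 2 fell in Flox, and 2 rose and 1 fell in GR iKO. Nfil3, a repressor of the clock output, rose by 3.41 and 2.71, and Arntl, the positive arm of the clock, fell by 1.83 and 1.72. Hlf rose by 1.98 in Flox, less than the spike-in shift, and was not called in GR iKO (1.07). Ciart, near background on water, rose by 1.93 in GR iKO and was not called in Flox (1.00).

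**Figure D5:**
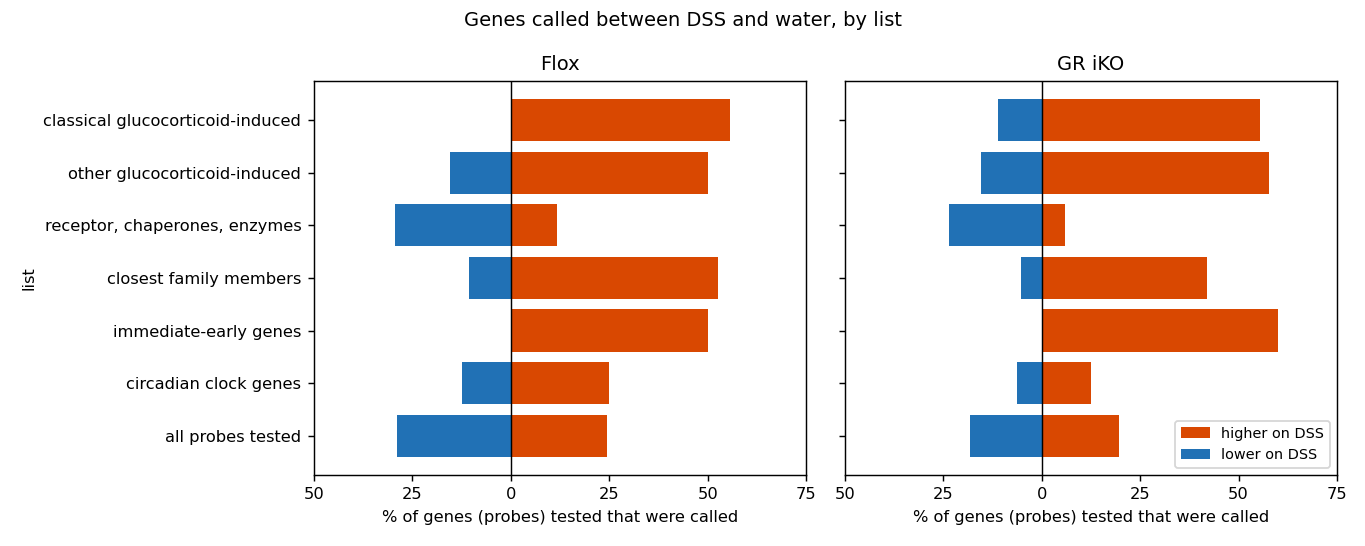
Share of the tested genes of each list that were called higher (orange, to the right) or lower (blue, to the left) on DSS than on water, in Flox and in GR iKO, with all probes tested as the bottom bar. The 9 classical members have 5 called higher in each genotype, beside 24.5% and 19.6% of all probes. In Flox these include Fkbp5, by a probe chosen partly by its DSS levels. Under spike-in scaling 0 members are called higher in Flox and 2 in GR iKO.

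Marker RNA of several cell types moved with DSS in the same arrays. As list means relative to all water arrays, 5 neutrophil markers stood at 5.11 to 6.22 in Flox and 6.70 to 8.69 in GR iKO colons on DSS, against −0.71 to 0.49 on water. Only 1 of these 5 markers was well above background on all arrays, and none was below it on every array. Macrophage markers stood at 0.79 to 1.44 and 1.29 to 2.27, and fibroblast markers at 1.20 to 1.56 and 0.94 to 1.19. In Flox these macrophage and fibroblast values are under the spike-in shift of 2.32. In GR iKO the macrophage values exceed that of 0.93, whereas the fibroblast values begin close to it. These shifts are against water arrays of the same genotype, while the list means are against all water arrays. Epithelial markers stood at −0.63 to −0.07 in Flox and 0.01 to 0.39 in GR iKO colons on DSS, and B and plasma cell markers at −3.69 to −0.54 and −2.84 to 0.25. The part of these cells in the rises of Cebpd, Dusp1, Pdk4 and Per1 was not tested.

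The genes outside the list whose levels followed each member most closely over the 14 arrays were picked by Pearson's r, as a description. These 14 points share 4 groups, and for the members that rose they mainly separate DSS from water. Cebpd ran closest to Nppc (r = 0.99) and Rbpj (0.98), Pdk4 to Pitpnm1 (0.99) and Reg3g (0.99), and Dusp1 to Rab31 (0.98) and Col18a1 (0.98). Per1 ran closest to Dbndd2 (0.97) and Lrrtm3 (0.96), Fkbp5 to 1700016K19Rik (0.98) and Cyp3a11 (0.96), and Errfi1 to Gprc5a (0.94) and B3galt5 (0.94). For the other members r was lower, with Klf9 closest to Zer1 (0.90) and Map1lc3b (0.88), Sgk1 to Tmem97 (0.87) and Aopep (0.86), and Tsc22d3 to Rbm25 (0.83) and Olfr229 (0.82).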

How the data were processed

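Arrays were grouped by the sample labels. The authors scanned 1-colour Agilent arrays and extracted spots with Agilent Feature Extraction 12.0.0.7 (Partek 6.6 is also named in their processing notes), and deposited the scanner output as background-subtracted intensity on a linear scale. The value table they deposited beside it holds log2 values with a median of 6.05 in every column, and was used as an alternative. How it was normalized is not given in the sources used here.

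Here, 1639 control spots and outlier spots were left out, spots of a probe were averaged, and log2 intensity minus the array's 75th percentile was used. Probes well above background on at least 3 of 14 arrays were tested (29523 of 41174). Probes were named through RefSeq accessions (28223 of 29245 matched). A gene stands by its tested probe with the highest mean level over all 14 arrays, DSS arrays included. Its other probes are named where call or direction differs. For Fkbp5 this choice depended on the DSS arrays. Named were all members, Nr3c1, up to 4 called genes per list and comparison with the largest change, and the 2 genes of closest pattern per member.

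Each pair of groups was fitted on its own arrays with limma 3.58.1 in R 4.3.3, since replicates on DSS varied more, and the interaction on all 14. P values are two-sided and adjusted by Benjamini-Hochberg over all probes tested, with a threshold of 0.05. Nr3c1 was tested by exact permutation in scipy, and by limma as the other genes were. The code was tested on simulated data. The members and lists were chosen with earlier results of these data known. The number of arrays limits the precision. Nothing says that replicates came from separate experiments, so p values measure the spread between these mice.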

Additional observations from a re-analysis of the deposited data

Results flagged for a closer look

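One array stood apart from its group. In GR iKO colons on water, the Errfi1 level of replicate 2 was 2.83, against 2.45 to 2.50 in the other 3 arrays. The gap made up 0.863 of the range of the group, above Dixon's 95% critical value of 0.829 for 4 arrays. In all, 20 groups of 4 arrays were examined for the members and Nr3c1, and chance alone gives about 1 such group in 20. The same array also had the highest Dusp1 (1.26) and Cebpd (4.87) levels of its group.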

How the results depend on the processing

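No member was called between the genotypes in any of 20 alternative settings on water or 18 on DSS. Among 909 refits of single members, 17 lost a call, 17 gained one and 8 reversed with a call on either side, while 49 others changed sign without being called in either setting. All 8 reversals came from spike-in scaling, by its constant shift of each array. In Flox on DSS, Fkbp5 then stood at −0.78, Per1 −0.81, Dusp1 −0.80, Klf9 −2.10, Errfi1 −1.87 and Pdk4 −0.39, in GR iKO Errfi1 at −0.046, and the interaction of Sgk1 at 1.39. Under that scaling the members called higher on DSS were 0 in Flox and 2 in GR iKO, those called lower in Flox were 4, those with a higher interaction were 5, and the Nr3c1 difference on DSS was 0.38. Array quality weights called 1 member lower in Flox, as did leaving out Flox replicate 4 on DSS (range 0 to 1). The single member called lower in GR iKO, Sgk1, became 0 with 1 spread for all arrays, separate variances for water and DSS, quality weights, no filter on dim probes, slide as a block or the replicate block, and 0 to 1 when 1 array was left out. The cause was not tested. Replicate numbers did not meet the rule for pairing, since 9 of 18 same-numbered pairs correlated over 0.1 (−0.23 to 0.31, median 0.10), against 11 of 55 other pairs (median −0.02), and the 18 pairs of 1 slide gave 9 as well (median 0.094). For the members, the replicate block changed no other count of members by over 1.5 times. The Nr3c1 difference on water was −0.80 with slide as a block (exact p = 0.125) and −0.86 to −0.74 without 1 array (exact p = 0.0571), where fewer arrays alone set the smallest p. With 3 arrays a group on DSS, differences within the intervals given are not excluded.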
